A study of Homo sapiens with 96 samples.

Results

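The exon events of A549 cells treated with MS023 for 7 days were compared with those of cells given DMSO for the same time. The members are all skipped exon (SE), mutually exclusive exon (MXE), alternative 3′ splice site (A3SS) and alternative 5′ splice site (A5SS) events of the 7-day table for MS023, which are 120297 of its 124785 events. They come from 6 of the 96 samples of the series, 3 per group. A549 is a cell line established from a lung adenocarcinoma, and both groups share this background. The treated cells received 1 µM MS023, an inhibitor of the Type I protein arginine methyltransferases (PRMTs), and the control cells 0.01% DMSO. Set beside these were A549 libraries with 1 µM MS023 for 2 and 4 days and with 0.01% DMSO for 4 days. Libraries with 1 µM GSK591, an inhibitor of PRMT5, for 7 days were used as well. Each of these groups also had 3 libraries. The labels tie the table to MS023 at 7 days, and its control side was inferred to be the 7-day DMSO libraries. Libraries are called a, b and c by their position in the table, since its columns carry no replicate numbers. The labels do not say that replicates came from separate cultures, so p-values do not reach beyond these libraries. In the main SE test the dispersion was pooled over events. The p of an SE therefore does not measure that event's own spread between its libraries.

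Pre-mRNA splicing joins exons and removes introns, and many exons can be joined or left out. Exon choice is set by splice sites and by RNA-binding proteins, among them SR and hnRNP proteins, many of which carry arginine-rich stretches. Type I PRMTs place asymmetric dimethylarginine on such proteins, whereas PRMT5 places the symmetric form. The value used for each event is Ψ, the share of transcripts with the alternative segment, computed from the counts of both forms over their effective lengths. For an MXE it is the share with the upstream exon of the pair, and for A3SS and A5SS the share with the longer exon. ΔΨ is mean Ψ with MS023 minus mean Ψ with DMSO.

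The sequences of 6 wholly coding exons with called changes are printed, because they are among those described in full. SRRM1, HMMR, MICAL3 and SDCCAG3 had some of the largest changes, while KMT2D and FLNA came from gene lists, and all but the 150-base SDCCAG3 exon were 51 bases or shorter. Exons are in capitals, with 20 bases of the intron before and 6 bases after in lower case, 5′ to 3′ on the gene's strand, from GRCh37 (hg19). The first 4 had higher Ψ with MS023 and the last 2 lower Ψ.
SRRM1, chr1:24989654-24989721, plus strand: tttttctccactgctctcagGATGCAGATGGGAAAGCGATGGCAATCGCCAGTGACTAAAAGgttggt
HMMR, chr5:162894687-162894760, plus strand: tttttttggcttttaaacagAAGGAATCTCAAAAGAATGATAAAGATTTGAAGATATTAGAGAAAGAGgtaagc
MICAL3, chr22:18286571-18286647, minus strand: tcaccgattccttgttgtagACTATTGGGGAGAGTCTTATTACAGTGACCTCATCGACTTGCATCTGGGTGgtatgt
KMT2D, chr12:49417830-49417903, minus strand: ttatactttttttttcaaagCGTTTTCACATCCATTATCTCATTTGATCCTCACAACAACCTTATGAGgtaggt
FLNA, chrX:153585613-153585662, minus strand: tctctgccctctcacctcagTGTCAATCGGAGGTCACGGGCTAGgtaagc
SDCCAG3, chr9:139304536-139304711, minus strand: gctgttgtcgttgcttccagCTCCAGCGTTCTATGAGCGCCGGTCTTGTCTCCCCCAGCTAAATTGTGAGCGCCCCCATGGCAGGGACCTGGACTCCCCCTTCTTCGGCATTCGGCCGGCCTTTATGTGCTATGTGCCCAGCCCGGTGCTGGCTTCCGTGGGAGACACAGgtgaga
All 6 begin after AG and end before GT, and each has a length that is a multiple of 3. The 17 bases from 20 to 4 before the exon held 15 pyrimidines in SRRM1 and FLNA, 14 in KMT2D, and 12 in HMMR, MICAL3 and SDCCAG3. Their Ψ values are given with the results.

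Each library had between 69857114 and 74239019 reads counted on the events, where a read counts once for each event it touches, and the median per tested event was 162 to 196. The chi-square per SE between replicates of a group was 1.68 to 1.86, where sampling noise alone gives about 1, so no library was a copy of another. Of the epithelial markers 5 of 8 had an event (KRT19, CLDN1 and CLDN4 had none), as did 7 of 7 genes typical of A549, such as AKR1B10 and NQO1. None of 4 blood, 4 fibroblast and 3 endothelial markers had one. Mean Ψ over 8955 variable SE was 0.5997, 0.5998 and 0.6125 in the DMSO libraries and 0.6114, 0.6071 and 0.6076 with MS023, so DMSO library c stood with the treated libraries in this measure. The groups differed by 0.0046, which a two-sided exact permutation test did not separate (p = 0.4, the smallest p of 3 against 3 being 0.1). Without DMSO library c the difference was 0.0079 (exact permutation p = 0.2).

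MS023 changed the use of exons in both directions. Of 71885 tested SE, 3560 were called (4.95%), with Ψ higher in 1781 (2.48%) and lower in 1779 (2.47%). An event was called at an adjusted p under 0.05 in a quasi-binomial model of both counts, with a limma-moderated dispersion and Benjamini-Hochberg adjustment within the type. The other types were mostly lower with MS023. Of 18411 MXE, 501 were called (2.72%), 365 of them lower. Of 6076 A3SS, 206 were called (3.39%), 156 of them lower, and of 4007 A5SS, 238 (5.94%), 179 of them lower. The groups' libraries did not overlap in 3976 of the 4505 called events. The share without overlap over all tested events was not computed, and calls favour groups that lie apart. The count is therefore no separate support for the calls. The called events lay in 2489 genes, 23.2% of the genes with a tested event, and 372 of these genes had called events of more than 1 type. Events of different types can share an exon and its reads, as in CTNND1, so they need not be separate changes.

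The number of called SE rests on how the dispersion is treated. With a dispersion that follows the number of reads, an alternative chosen after seeing the data, 1722 SE were called (2.4%), and all of these were among the 3560. Among the 27529 SE with at least 10 reads of each form, settings also chosen after seeing the data called 2670 with 1 dispersion, 2516 with the trend and 2508 with a robust trend. A limma test of the log2 odds called 0 SE, although 7333 had an unadjusted p under 0.05, and the model with each event's own dispersion called 0, with 4012 under 0.05. With any one of the 6 libraries left out, which leaves fewer samples, 1240 to 1676 SE were called. Without DMSO library c, 944 were higher and 732 lower with MS023, whereas lower calls outnumbered higher ones in every other such fit. Most changes were small. The median absolute ΔΨ of called SE was 0.069, with 1327 at 0.1 or more and 669 below 0.02.

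**Figure D1:**
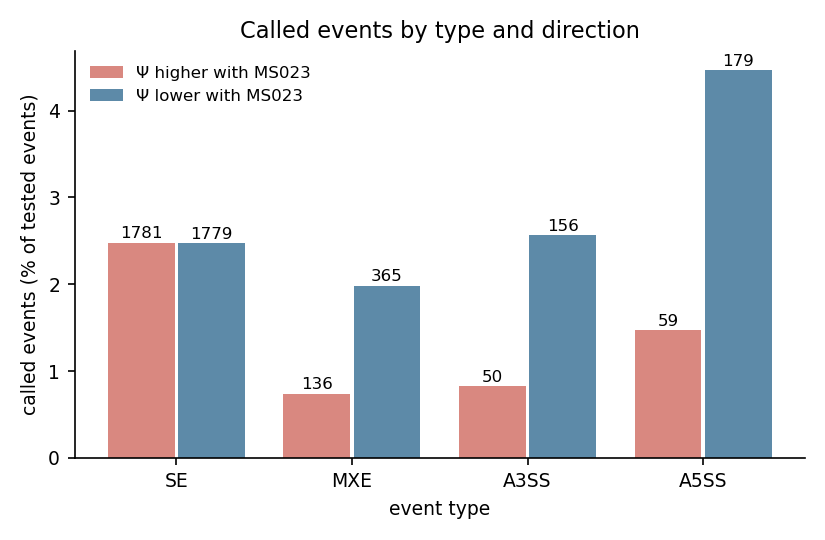
Share of tested events called at an adjusted p under 0.05 (%), by event type, for Ψ higher (red) and lower (blue) with MS023, with the number of events above each bar. SE had 1781 higher and 1779 lower, whereas lower events outnumbered higher ones in MXE, A3SS and A5SS.

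The SE with the largest rises lay in genes of several functions. Groups that do not overlap were a condition of the rule that chose the named events. In LRIF1, a nuclear protein that binds heterochromatin factors, Ψ of the 1528-base coding exon 2 (chr1:111493910-111495437) was 0.207, 0.147 and 0.169 with DMSO and 0.505, 0.501 and 0.608 with MS023. The groups were far apart, and ΔΨ was 0.363 (adjusted p = 1.46e-34). NDE1, a dynein regulator of mitosis and neural development, had a 126-base coding exon at 0.415, 0.433 and 0.375 with DMSO and 0.680, 0.726 and 0.842 with MS023 (adjusted p = 4.69e-12). In ZFAND1, a stress granule clearance factor, the 40-base exon 3 was at 0.271, 0.235 and 0.267 against 0.643, 0.610 and 0.477 (adjusted p = 8.32e-19). The lowest MS023 library in ZFAND1 was library c, still well above every DMSO library.

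The 42-base SRRM1 exon belongs to a splicing coactivator with SR repeats. It had Ψ of 0.440, 0.345 and 0.463 with DMSO and 0.703, 0.782 and 0.681 with MS023, a ΔΨ of 0.306 (adjusted p = 2.29e-22). MICAL3, an oxidase that acts on actin and vesicle traffic, had its 51-base exon at 0.314, 0.307 and 0.296 against 0.524, 0.682 and 0.617 (adjusted p = 5.53e-06). DMSO libraries of MICAL3 were tightly grouped while those with MS023 were spread. The 48-base exon 4 of HMMR, a spindle and hyaluronan-binding protein, was at 0.455, 0.492 and 0.496 against 0.733, 0.769 and 0.827 (adjusted p = 2.68e-12). PARPBP, which interacts with PARP1, had a partly coding exon at 0.650, 0.589 and 0.616 against 0.918, 1.000 and 0.819, on 50 to 80 reads per library (adjusted p = 8.70e-04).

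A 227-base exon of WHSC1 (NSD2 in GENCODE), the H3K36 methyltransferase, was annotated only in transcripts of the nonsense-mediated decay class. Its Ψ was 0.282, 0.249 and 0.202 with DMSO and 0.511, 0.643 and 0.483 with MS023, a ΔΨ of 0.301 (adjusted p = 3.88e-13). That every MS023 library was above every DMSO library was a condition of the rule that chose the event.

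The largest falls included very long coding exons. Exon 31 of PLEC, 3381 bases long (chr8:144996672-145000052), encodes the rod of the cytoskeletal linker plectin. Its Ψ was 0.769, 0.723 and 0.755 with DMSO and 0.240, 0.272 and 0.238 with MS023, a ΔΨ of -0.499 (adjusted p = 3.97e-236). The event had 8220 to 11605 reads in the DMSO libraries and 2348 to 2784 in those with MS023, and its libraries agreed closely within each group. Exon 7 of MKI67, 1080 bases long (chr10:129913192-129914271), is the exon that separates the long and short forms of the proliferation antigen Ki-67. It was at 0.862, 0.802 and 0.778 against 0.309, 0.406 and 0.451 (adjusted p = 5.29e-31). Exon 16 of PRRC2B, 2082 bases long (chr9:134349841-134351922), in a translation-associated protein, was at 0.894, 0.886 and 0.873 against 0.517, 0.481 and 0.451 (adjusted p = 7.23e-67).

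Falls were also seen in shorter exons. ACSF3, a mitochondrial malonyl-CoA synthetase, had the 686-base exon 3, which holds part of its coding sequence, at 0.863, 0.699 and 0.905 with DMSO and 0.289, 0.332 and 0.381 with MS023 (adjusted p = 1.93e-21). EP400, the ATPase of a histone exchange complex, had the 236-base exon 47 at 0.930, 0.721 and 0.879 against 0.412, 0.382 and 0.490 (adjusted p = 3.19e-15). In both genes DMSO library b was the lowest of its group. GENCODE did not hold the full pair of inclusion junctions or the skipping junction of the EP400 event. The same was true of the PARPBP and AKR1C2 events. The EP400 exon also holds a long run of CAG repeats, and the placement of reads there was not checked. The SDCCAG3 exon (ENTR1 in GENCODE, an endosomal and ciliary protein) was at 1.000, 0.985 and 0.921 against 0.516, 0.574 and 0.675 (adjusted p = 3.47e-13). An exon of AKR1C2, a hydroxysteroid dehydrogenase, was at 0.697, 0.781 and 0.827 against 0.319, 0.401 and 0.365, and is uncertain because AKR1C genes are near-identical. In RNA of whole cultures, a change in every cell and a change in the share of cells with a form cannot be told apart.

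**Figure D2:**
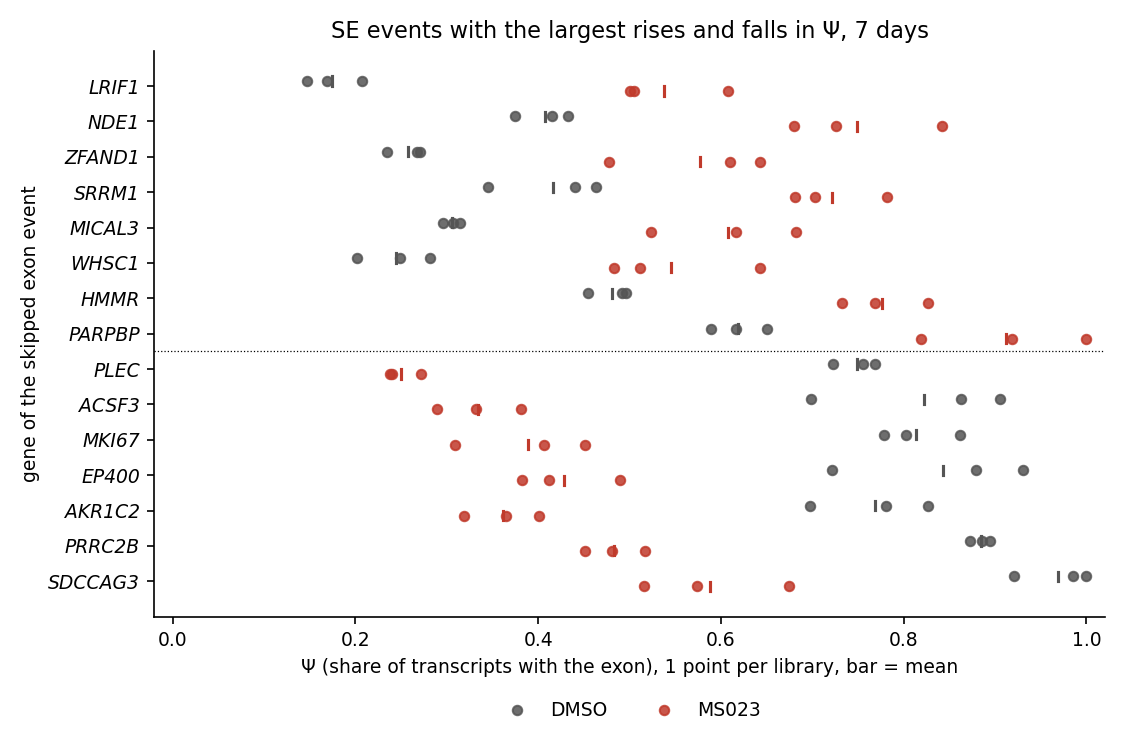
Ψ of the 8 SE with the largest rise (above the dotted line) and the 7 with the largest fall that are described here, 1 event per gene; points are libraries (grey DMSO, red MS023) and short bars group means of 3. No event overlaps between groups, a condition of the rule that chose them; PLEC fell from about 0.749 to 0.250 with little spread.

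Called SE differed in exon length by direction. The median exon was 101 bases among called SE with higher Ψ and 139 among those with lower Ψ, against 119 over all tested SE and 117 over those with at least 10 reads of each form. Exons of 60 bases or fewer made up 21.3% of the higher SE and 5.45% of the lower SE, with 9.83% over all tested SE. Exons of 500 bases or more made up 3.37% and 6.18%, with 2.4% over all. With the dispersion that follows the reads, the medians were 99 and 144 bases. Ψ with DMSO was a median of 0.585 in the higher SE and 0.947 in the lower SE, against 0.909 in all tested SE with at least 10 reads of each form. The median GC content of the exon was 48.6% and 52.7%, and a length that is a multiple of 3 was found in 45.3% and 44.9%, against 50% and 40.7% over all tested SE. In GENCODE, 60.2% of higher and 62.3% of lower exons were wholly coding, and 10.8% and 7.76% were in nonsense-mediated decay transcripts but in no protein-coding one. Over all tested SE these shares were 75% and 5.9%, and over those with at least 10 reads of each form 63.3% and 8.93%, near those of the called SE. These features are descriptions, and events of 1 gene share sequence and reads.

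In MXE, the largest rise was in SEC31A, a subunit of the COPII coat. The share with its 39-base exon 13 was 0.350, 0.355 and 0.360 with DMSO and 0.733, 0.594 and 0.740 with MS023 (adjusted p = 4.10e-04). BRE (BABAM2 in GENCODE), a member of BRCA1-containing deubiquitinase complexes, rose by a ΔΨ of 0.273, and the mitochondrial ribosomal protein gene MRPS18C by 0.241. EEF1D, a translation elongation factor subunit, had the largest fall, from 0.909, 0.941 and 0.895 to 0.518, 0.622 and 0.542 (adjusted p = 2.72e-05). ANKS6, a ciliary protein, had a ΔΨ of -0.286. For p120-catenin (CTNND1), which binds cadherins, the pair of exon 2 and a 72-base exon had a ΔΨ of -0.252.

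Among A3SS, an event of FN1, which encodes the matrix protein fibronectin, showed the least spread of those named. The share with the longer, 392-base coding exon was 0.705, 0.711 and 0.696 with DMSO and 0.434, 0.423 and 0.434 with MS023 (ΔΨ of -0.274, adjusted p = 6.74e-16). NR1H3, the oxysterol receptor LXRα, fell from 0.815, 0.831 and 0.881 to 0.594, 0.497 and 0.486 (adjusted p = 2.60e-05), and ECHDC2 had a ΔΨ of -0.285. Rises were seen in ERI2, an exonuclease-like protein (0.287), and in C1orf63 (RSRP1 in GENCODE), an SR-related protein (0.239). At 4 days the ΔΨ of C1orf63 was -0.030 (quasi-binomial adjusted p = 0.768). HERC2P2 is a pseudogene with near-identical copies, so its event is uncertain. It was at 0.102, 0.491 and 0.416 with DMSO and 0.613, 0.568 and 0.530 with MS023 (adjusted p = 7.17e-06), with DMSO library a far below the other libraries of its group. The HERC2P2 A3SS call was not made without DMSO library a, where ΔΨ was 0.117 (adjusted p = 7.59e-02).

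The largest fall of any named event was the A5SS of ZNF418, a zinc-finger gene. The longer form was at 1.000 in all 3 DMSO libraries and at 0.474, 0.369 and 0.432 with MS023 (ΔΨ of -0.575, adjusted p = 7.09e-04). ZNF75D, another zinc-finger gene, fell from 0.741, 0.860 and 0.795 to 0.431, 0.374 and 0.323. The splicing kinase gene CLK4 fell from 0.596, 0.837 and 0.848 to 0.528, 0.259 and 0.311, where DMSO library a and MS023 library a lay close together (adjusted p = 5.75e-03). CLASRP, an SR-related partner of CLK4, rose from 0.347, 0.303 and 0.413 to 0.614, 0.547 and 0.621, by a splice site only 4 bases away (adjusted p = 2.11e-05). C7orf49 (CYREN in GENCODE), a regulator of end joining, had a ΔΨ of 0.219. TMEM256-PLSCR3, a readthrough gene, had one of 0.245, and its reads may belong to either gene.

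Genes of the splicing machinery were themselves among those with called events. SR proteins and SR-related factors had called events in 12 of 22 genes (9 events higher and 10 lower), hnRNP and PTB proteins in 10 of 22 (17 and 17), and other splicing regulators in 13 of 25 (14 and 17). Over all genes the share was 23.2%, with a median of 6 tested events per gene against 11, 14 and 12 in these lists. Genes with more tested events have more chances of a call, and this was not adjusted for. Core spliceosome genes had 15 of 52, other RNA-binding proteins known to carry methylarginine 12 of 31, and the CLK, SRPK and DYRK kinases 4 of 11.

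A 136-base exon of HNRNPA2B1, annotated only in nonsense-mediated decay transcripts, was at 0.259, 0.292 and 0.336 with DMSO and 0.523, 0.501 and 0.491 with MS023 (adjusted p = 1.82e-54). HNRNPA2B1 is an RNA-binding protein with an arginine-glycine-rich region. The 1474-base exon of SNRNP70, which encodes the U1-70K protein, was also annotated only in such transcripts and rose from 0.039, 0.053 and 0.064 to 0.156, 0.142 and 0.146. In DDX5, an RNA helicase, the A5SS event had a 1461-base extension of an exon. Its Ψ fell from 0.965, 0.982 and 0.974 to 0.758, 0.769 and 0.728 (adjusted p = 7.18e-15). This long form is annotated only in a retained-intron transcript. Any read within the stretch counts as inclusion, so Ψ here need not be the share of transcripts that carry all of it.

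Other members of these lists also had called events. HNRNPH1 had an A5SS ΔΨ of 0.098, HNRNPC and SON MXE ΔΨ of -0.235 and -0.097, and PNISR an SE ΔΨ of 0.101. LUC7L, a U1-associated protein, had an MXE ΔΨ of -0.231, and CELF1 an SE ΔΨ of -0.151. CLK1, which phosphorylates SR proteins, had its exon 4 at 0.843, 0.934 and 0.919 with DMSO and 0.585, 0.713 and 0.788 with MS023 (adjusted p = 8.75e-05), and DYRK1B had an A3SS ΔΨ of -0.156. The events of SUGP2 (0.215), PUF60 (0.186), POLDIP3 (0.123) and G3BP2 (-0.109) were called here but not with the dispersion that follows the reads.

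**Figure D3:**
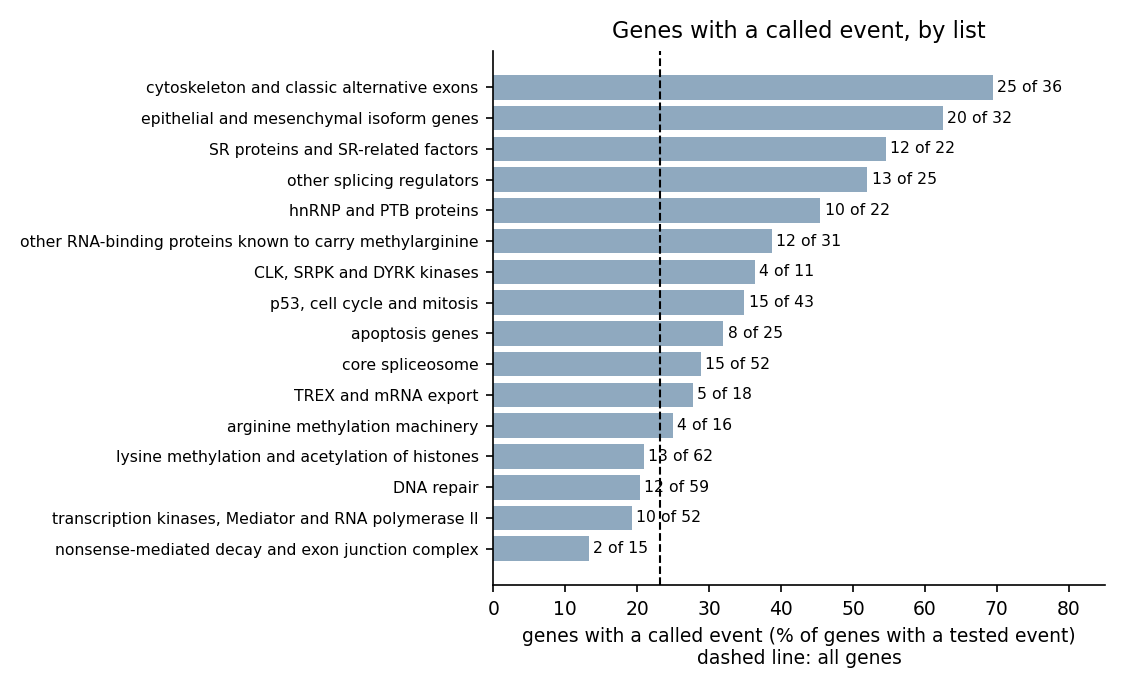
Genes with at least 1 called event as a share of genes with a tested event (%), for 16 gene lists, with counts beside the bars; the dashed line is the share over all genes, 23.2%. Lists differ in tested events per gene, from a median of 5 to 18.5, which the shares do not take into account.

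Of the arginine methylation machinery, 4 of 16 genes had a called event (25%), near the 23.2% over all genes. PRMT1, the main Type I enzyme, had its exon 3 at 0.980, 0.985 and 0.976 with DMSO and 0.962, 0.958 and 0.967 with MS023, a small change measured on 4711 to 5389 reads per library (adjusted p = 1.41e-08). The PRMT5 A5SS event was at 0.930, 1.000 and 0.969 against 0.889, 0.899 and 0.857 (adjusted p = 4.14e-03). In PRMT7, exon 12 had a ΔΨ of 0.228, a call not made with the dispersion that follows the reads. Nonsense-mediated decay and exon junction complex genes had 2 of 15 (13.3%), UPF3A (-0.122, likewise not called with that dispersion) and UPF3B (0.097). TREX and mRNA export genes had 5 of 18 (27.8%), among them the cap-binding NCBP2 with an A5SS ΔΨ of -0.220 and ENY2 with -0.050.

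The highest shares were in the lists named for classic alternative exons and for epithelial and mesenchymal isoforms. Such lists hold genes picked for their alternative forms, so their shares are no finding about cell shape or adhesion. Cytoskeletal genes and classic alternative exons had called events in 25 of 36 genes (35 events higher and 39 lower, median of 18.5 tested events per gene), and epithelial and mesenchymal isoform genes in 20 of 32 (30 and 29, median 12.5). The 24-base FLNA exon, in an actin crosslinker, was at 0.595, 0.648 and 0.643 with DMSO and 0.370, 0.433 and 0.348 with MS023 (adjusted p = 3.63e-93). As an SE, exon 2 of CTNND1 was at 0.540, 0.564 and 0.558 against 0.265, 0.315 and 0.256 (adjusted p = 1.34e-65). LIMCH1, an actomyosin regulator, rose from 0.411, 0.374 and 0.545 to 0.713, 0.634 and 0.697 (adjusted p = 6.87e-09). ABI1, of the WAVE complex, had a ΔΨ of 0.216, and EXOC7, of the exocyst, an MXE ΔΨ of -0.217.

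The lists of growth and genome control were nearer the share of all genes. Apoptosis genes had 8 of 25 (12 events higher and 2 lower), while over all genes 2026 called events were higher and 2479 lower. Events of 1 gene can share reads. The called apoptosis events had a median absolute ΔΨ of 0.028, and 4 of these genes had a call with the dispersion that follows the reads. SE ΔΨ was 0.159 in XIAP, a caspase inhibitor, and 0.134 in BAX, a pore-forming BCL2 relative. BCL2L12 had an MXE ΔΨ of -0.074. Genes of p53, the cell cycle and mitosis had 15 of 43. The 3366-base exon 15 of NUMA1, a spindle pole protein, was at 0.997, 1.000 and 1.000 with DMSO and 0.842, 0.818 and 0.884 with MS023 (adjusted p = 1.24e-37), and CDC25C exon 3 had a ΔΨ of 0.230. DNA repair genes had 12 of 59. The longer form of the 3426-base BRCA1 exon 10 fell from 0.821, 0.823 and 0.859 to 0.688, 0.611 and 0.763 (adjusted p = 2.52e-03), and MDC1 (-0.136) and RAD51C (0.135) were not called with the dispersion that follows the reads.

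Histone lysine methylation and acetylation genes had 13 of 62 (21.0%), against 23.2% over all genes. The 48-base KMT2D exon, in an H3K4 methyltransferase, was at 0.127, 0.098 and 0.124 with DMSO and 0.271, 0.495 and 0.301 with MS023 (adjusted p = 4.58e-06). EHMT2 exon 10, in the H3K9 methyltransferase G9a, was at 0.543, 0.478 and 0.647 against 0.748, 0.788 and 0.787 (adjusted p = 6.41e-12). Transcription kinases, Mediator and RNA polymerase II genes had 10 of 52 (19.2%). ΔΨ was -0.087 in CDK12, -0.051 in MED25 and -0.111 in CCNL2, the last not called with the dispersion that follows the reads. Of the 75 events named by rule, 66 were called with that dispersion, 2 by limma on the log2 odds, and 0 with each event's own dispersion.

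With 1 of the 6 libraries left out at a time, which leaves fewer samples, 43 of the 75 named events were called in every fit and 32 lost the call in at least 1. SUGP2, G3BP2, POLDIP3, UPF3A, MDC1 and CCNL2 lost it in all 6 fits, and PRMT5, PUF60 and RAD51C in 5. BAX, BCL2L12, CLK4, ENY2, EXOC7, HERC2P2, HNRNPC, PNISR, PRMT7 and XIAP lost it in 4 fits, and BRCA1, C7orf49, CDC25C, CDK12, CELF1, DYRK1B, ERI2 and ZNF75D in 3. The PARPBP call was lost without MS023 library a (adjusted p = 8.29e-02) and without MS023 library b (adjusted p = 1.08e-01), and CLK1 without the same libraries (adjusted p = 2.20e-01 and 6.33e-02). C1orf63 lost it without MS023 library a or c, LIMCH1 without MS023 library a (adjusted p = 5.21e-02) and SON without MS023 library b. Of the 16 SE with the largest rises and falls, only PARPBP lost its call in these fits.

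The 4-day MS023 comparison shares no library with the 7-day one. Of the 3560 SE called at 7 days, 3445 were tested at 4 days, and 3060 of these (88.82%) had ΔΨ of the same sign. The same-sign share over all SE tested at both times was not computed, so this share has no background. At 4 days 1383 of the 3445 were called (40.15%), against 5.719% of all SE tested at both times, and 1374 of these had the same sign. Over all SE of the 4-day comparison, 4.28% were called, and of the 2-day comparison 3.67%, both against 4-day DMSO. The directions differed from those at 7 days. Called SE were higher in 1184 and lower in 2185 at 4 days, and 816 and 2064 at 2 days, while called MXE were higher in 165 and lower in 126 at 4 days and 111 and 91 at 2 days. A3SS and A5SS were mostly lower at both times, as at 7 days. SE higher at 7 days had a median ΔΨ of 0.073 at 7 days and 0.027 at 4 days, and those lower had -0.064 and -0.040. These SE were picked by their call and sign at 7 days, which favours larger values at that time. The medians therefore do not show that the effect grew with time. At 2 days 2942 of 3436 (85.62%) had the same sign as at 7 days, again without a share over all tested SE.

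Some of the named exons had most of their change by 2 or 4 days and others did not. PLEC had a ΔΨ of -0.417 at 2 days, -0.502 at 4 days and -0.499 at 7 days, and EP400 had -0.395, -0.423 and -0.416. HMMR had 0.065, 0.099 and 0.295. In HMMR the mean Ψ with MS023 was 0.754 at 4 days and 0.776 at 7 days, while that with DMSO was 0.655 and 0.481. PARPBP and LIMCH1 also had lower DMSO means at the later time, with 0.794 and 0.758 at 4 days and 0.619 and 0.443 at 7 days, and had MS023 means of 0.810 and 0.746 at 4 days and 0.913 and 0.681 at 7 days. The DMSO groups of both days were not tested against each other. The difference of the effect between 7 and 4 days itself did not pass in these genes (interaction adjusted p = 0.264 in HMMR, 0.362 in PARPBP and 0.0652 in LIMCH1). The DMSO means of C1orf63, TMEM256-PLSCR3 and POLDIP3 were 0.824, 0.664 and 0.562 at 4 days. At 7 days they were 0.517, 0.513 and 0.388. Their MS023 means were 0.795, 0.710 and 0.561 at 4 days and 0.756, 0.758 and 0.511 at 7 days. Other named events had higher DMSO means at 7 days, such as CCNL2 with 0.710 at 4 days and 0.870 at 7 days.

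Over 55588 SE, this interaction passed in 31 (0.0558%), in 25 genes. It was positive in 30, meaning a ΔΨ higher at 7 than at 4 days, and the sign of ΔΨ differed between the times in 19. In 8 of these 19, from 6 genes, ΔΨ passed at both times. Limma on the log2 odds called 0, and 5107 SE had an unadjusted p under 0.05 in the main model. The 5 genes also called with the dispersion that follows the reads were RPLP0, BCL2L12, MPRIP, S100A4 and PCBP2, singled out after their values were seen. In MPRIP, a myosin phosphatase partner, ΔΨ was 0.092 at 7 days and -0.073 at 4 days (interaction adjusted p = 1.11e-03). For PCBP2, a poly(C)-binding protein, it was 0.073 and -0.011 (interaction adjusted p = 1.31e-02), of which the 4-day value did not pass on its own (adjusted p = 5.02e-01). Leaving out DMSO 7-day library c gave 62 calls, leaving out DMSO 4-day library c 28, and leaving out any of the other libraries 5 to 14. Length of treatment cannot be told apart from other differences between the 7-day and 4-day sets of libraries.

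MS023 was also compared directly with 1 µM GSK591, an inhibitor of PRMT5, at 7 days. Of 50920 SE, 7189 differed (14.1%), with Ψ higher with MS023 in 4029 and lower in 3160. Both inhibitors were set against the same DMSO libraries, so their ΔΨ share these, and the values are given side by side. PLEC had a ΔΨ of -0.499 with MS023 and -0.222 with GSK591, and Ψ differed by -0.277 between them (adjusted p = 4.17e-97). MKI67 had -0.426 and 0.142 (adjusted p of the direct test = 5.36e-23), and EP400 -0.416 and 0.086 (adjusted p = 4.72e-19). Against DMSO, the change with GSK591 passed in MKI67 (quasi-binomial adjusted p = 6.02e-03) but not in EP400 (adjusted p = 0.192).

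The inhibitors also differed in exons with higher Ψ with MS023. HNRNPA2B1 had a ΔΨ of 0.209 with MS023 and -0.046 with GSK591 (adjusted p = 1.00e-66), XIAP 0.159 and -0.222 (adjusted p = 5.95e-24), and EHMT2 0.218 and -0.193 (adjusted p = 7.92e-32). SNRNP70 had the larger ΔΨ with GSK591, 0.260 against 0.096 (adjusted p = 1.46e-169). For SRRM1 (0.306 and 0.261, adjusted p = 0.359) and PRMT7 (0.228 and 0.241, adjusted p = 0.908) the direct test did not pass, which does not show that the inhibitors act alike there.

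**Figure D4:**
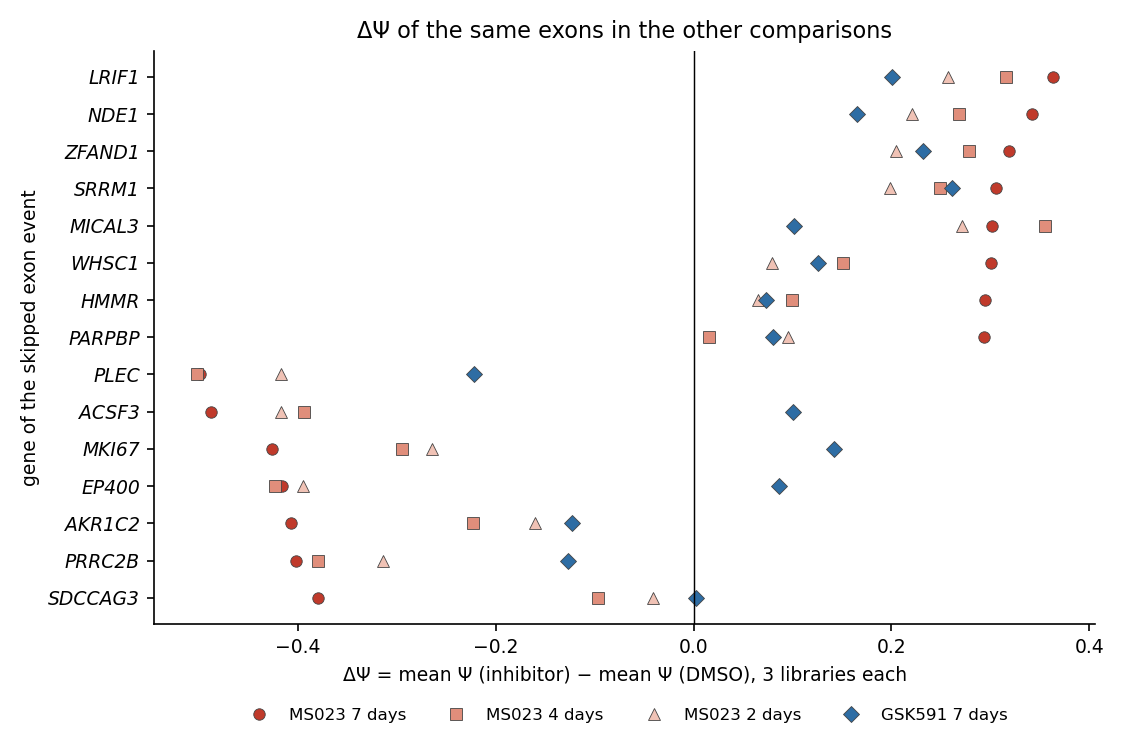
ΔΨ (inhibitor minus DMSO, 3 libraries each) of the SE in the plot of Ψ by library, with MS023 at 7, 4 and 2 days and GSK591 at 7 days. The 2-day and 4-day values share the 4-day DMSO libraries and both 7-day values share the 7-day DMSO libraries. ACSF3, MKI67 and EP400 lie below 0 with MS023 and above 0 with GSK591. Of these, only MKI67 was called with GSK591 against DMSO.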

How the data were processed

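Poly(A)-RNA seq libraries (stranded, 150 nt paired-end) of A549 cells were used. Per the submitters' processing notes, Trim Galore 0.6.5, STAR 2.4.2a, Picard 2.3.0, deepTools 3.3.1 and hg19 were used. The authors ran rMATS and deposited, per event and library, unnormalized counts of inclusion and skipping reads, where inclusion includes reads within the alternative exon. Long exons so collect more reads, which the effective lengths adjust for. The release of rMATS is given differently in the methods and the key resources. The tables also hold the authors' p-values, FDR and Ψ differences, which were not used. Of 8 tables, 4 were used, and 0 columns of per-sample values were left out of them.

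Events with at least 10 reads in every library and both forms seen were tested with a quasi-binomial logistic model in R 4.3.3 with limma 3.58.1 (squeezeVar, dispersion at least 1, F test). The prior degrees of freedom were infinite for SE, so 1 dispersion of 1.27 served nearly all SE, although the mean dispersion rose from 0.954 with 1 to 9 reads of the rarer form to 2.85 with 500 or more. In all, 6 dispersion settings were tried; 4 of them (a trend on the reads of the rarer form, at least 10 reads of each form, both, and a robust trend) were chosen after seeing the data. The trend with at least 10 reads of each form was for a time taken as the main setting once these counts were known, and the planned setting was then restored. The model was also run on simulated data, but the outcome is not given here and lends no support to the calls. Named events needed at least 50 reads in every library and groups that do not overlap, 1 per gene: the 8 largest rises and falls of SE, 3 each of other types, and 3 per list. Some of these events are not reported here. Members and lists were chosen with earlier results of these data known. Exon positions, checked by splice-site bases (99.9% of SE; 0.172% after a shift of 7 bases), and GENCODE 44 annotation are on GRCh37.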

Additional observations from a re-analysis of the deposited data

Results flagged for a closer look

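The effect of MS023 on SE differed between 7 and 4 days in 31 events by the interaction test, of which 8 were also called with the dispersion that follows the reads. Length of treatment cannot be told apart here from other differences between the libraries of these days. In BCL2L12, ΔΨ of the named MXE was 0.053 at 4 days and -0.074 at 7 days, with the libraries of both groups apart in opposite directions at the 2 times, and the difference was not tested for MXE. The 4-day ΔΨ did not pass (limma-moderated adjusted p = 1.18e-01). Mean Ψ with DMSO was 0.107 at 4 days and 0.245 at 7 days, and with MS023 0.161 and 0.171. An SE of BCL2L12 had the opposite order, with ΔΨ of 0.065 at 7 days and -0.104 at 4 days (interaction adjusted p = 8.00e-04). RPLP0, a ribosomal protein gene with many processed copies whose reads are therefore uncertain, had ΔΨ of -0.221 and -0.255.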

How the results depend on the processing

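Called SE, MXE, A3SS and A5SS numbered 0, 12, 0 and 14 by limma on the log2 odds, and 0 in each type with each event's own dispersion. The number of SE events called fell to 1722 with the dispersion trend and to 939 with an adjusted p under 0.01 and an absolute ΔΨ of at least 0.1. With 1 library left out, which leaves fewer samples, SE were 1240 to 1676, MXE 262 to 726 (726 without DMSO c), A3SS 65 to 139 and A5SS 73 to 165. The direct comparison with GSK591 gave 1251 calls by limma, 0 with each event's own dispersion, and 3549 to 4994 with 1 library left out. The interaction gave 0 by both of these tests, 9 with the trend, 7 with the trend and at least 10 reads of each form, and 5 to 62 with 1 library left out. Read minimums of 20 or 1 and adjustment over all 4 types gave 3468 to 3600 SE, 498 to 597 MXE, 202 to 229 A3SS and 217 to 243 A5SS. The difference in mean Ψ was 0.0018 without DMSO library a and 0.0095 without effective lengths, the lowest and highest of all its alternatives, with no change of sign. Of the 75 named events 43 were called in all 6 fits with a library left out. The planned edgeR test was not run, since the deposited cells join the counts of 3 libraries and were recorded as a unit other than counts. No paired analysis was possible because the table's columns carry no replicate numbers.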
